A study of Homo sapiens with 18 samples.

Results

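The ATAC-seq peaks of untreated A2780 and Acis cells were compared with each other and then with the RNA of the same untreated lines. A2780 is a human ovarian carcinoma line that is sensitive to cisplatin, and Acis (A2780cis) is its resistant derivative, which was kept in culture with 1 µM cisplatin every 3 passages. The 2 control peak lists hold 59464 of the 118944 peaks in the 4 ATAC-seq lists, namely 34979 peaks in A2780 and 24485 in Acis, and each list merges 3 replicates, keeping regions that overlapped by more than 50% in all of them. Any overlap of 1 bp or more with the other control list made a peak shared, and all others were A2780-only or Acis-only. RNA came from 6 control libraries, 3 of A2780 and 3 of Acis, and none of these cells had received the 200 µM cisplatin given for 3 h to the treated groups. With 1 sensitive and 1 resistant line, effects of resistance and other differences between the 2 lines cannot be told apart. Where RNA of a gene differed in these bulk samples, fewer cells with the transcript and less transcript per cell cannot be told apart.

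ATAC-seq uses a transposase to cut DNA that is free of nucleosomes, so that reads pile up at promoters, enhancers and insulators in use. Peaks at promoters are largely common to different cell types, whereas peaks at distal enhancers carry much of the difference between cell states. A gene that loses its promoter peak is often silent, while a gene may keep an open promoter and still change its transcription through distal elements.

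The peaks that carry the RNA results are shown first for 5 genes with a start peak in 1 line only, 3 of A2780 and 2 of Acis, all with large RNA differences described further on. The sequences are the bases around the peak summit on the plus strand of hg38, and capitals mark matches to the motifs searched. The A2780-only peak of DLX6-AS1 is also the start peak of DLX6, at chr7:97005407-97005556 for the bases shown. Its summit lay 1165 bp from the nearest DLX6-AS1 start, so that the peak lies within 1 kb of that start by its edge only. The bases shown reach the 5′ end of DLX6 at position 97005553. The window of PAX2 was chr10:100745457-100745606. For EYA4 only 68 bases outside an annotated UTR are given, at chr6:133240838-133240905. The Acis-only windows were chr4:8872099-8872248 upstream of HMX1 and chr2:232488284-232488433 upstream of ECEL1.
DLX6-AS1: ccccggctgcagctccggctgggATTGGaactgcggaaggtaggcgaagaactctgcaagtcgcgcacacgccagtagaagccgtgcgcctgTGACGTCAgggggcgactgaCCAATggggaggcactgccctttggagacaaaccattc
PAX2: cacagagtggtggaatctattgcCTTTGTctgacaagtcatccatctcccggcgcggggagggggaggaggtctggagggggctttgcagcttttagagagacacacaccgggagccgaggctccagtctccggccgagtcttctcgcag
EYA4: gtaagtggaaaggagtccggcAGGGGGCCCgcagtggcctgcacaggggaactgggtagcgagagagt
HMX1: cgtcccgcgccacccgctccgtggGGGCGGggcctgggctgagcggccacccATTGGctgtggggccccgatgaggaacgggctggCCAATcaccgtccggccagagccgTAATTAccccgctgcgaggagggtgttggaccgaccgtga
ECEL1: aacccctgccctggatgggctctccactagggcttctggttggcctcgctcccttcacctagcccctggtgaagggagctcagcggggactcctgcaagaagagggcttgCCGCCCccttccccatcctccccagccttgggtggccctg

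The DLX6-AS1 window held 1 match to the CRE motif TGACGTCA, which was present in 1.86% of the 28387 start peaks of the 2 lists within 150 bases around the summit, and 2 matches to the NFY motif CCAAT, present in 25.9%. PAX2 held 1 SOX motif ACAAAG, present in 5.51% of start peaks. EYA4 held 1 match to the CTCF pattern AGNNGGCNC, present in 20.3%. HMX1 held the homeodomain motif TAATTA, present in 0.511%, together with 2 NFY matches and the SP/KLF motif GGGCGG, present in 43.6%. ECEL1 held an SP/KLF match. In all, 18 motifs were searched on both strands, and a match is a description of letters and not of a bound factor.

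Of the A2780 peaks, 14743 (42.1%) had no overlap with an Acis peak, and of the Acis peaks, 4091 (16.7%) had none with an A2780 peak. There is 1 list per line, so no replicate error and no test could be given for these counts. At other borders, 14336 A2780 peaks and 3923 Acis peaks counted as line-only when peaks within 500 bp were called shared, 15522 and 4251 when at least 50% of a peak had to be covered, and 15712 and 5218 when 50% of both peaks had to be. The list lengths mattered more. When only the 20000 strongest peaks of each list were compared, 4576 A2780 peaks and 4486 Acis peaks were line-only, and the near-equal numbers follow from the equal list lengths. The number of reads behind each list is not in the files, and its part in the excess of A2780-only peaks was not tested.

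Line-only peaks were the weaker peaks of their lists. The median fold enrichment over the local background was 7.04 for A2780-only and 13.2 for shared A2780 peaks, and 6.97 for Acis-only and 14.1 for shared Acis peaks. The share of line-only peaks went from 1.72% in the strongest decile of the A2780 list to 89.1% in the weakest decile, and from 0.367% to 47.3% in Acis. The 60 A2780-only and 9 Acis-only peaks of the strongest deciles were all listed again in the cisplatin-treated cells of the same line. Over all strengths, 47.3% of A2780-only peaks were listed again in treated A2780 cells and 19.8% in treated Acis cells. For Acis-only peaks the values were 67.2% in treated Acis cells and 23.1% in treated A2780 cells. The treated lists merge 2 replicates each. A shared peak of the A2780 list was found again in treated A2780 cells in 92.3% of cases.

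**Figure D1:**
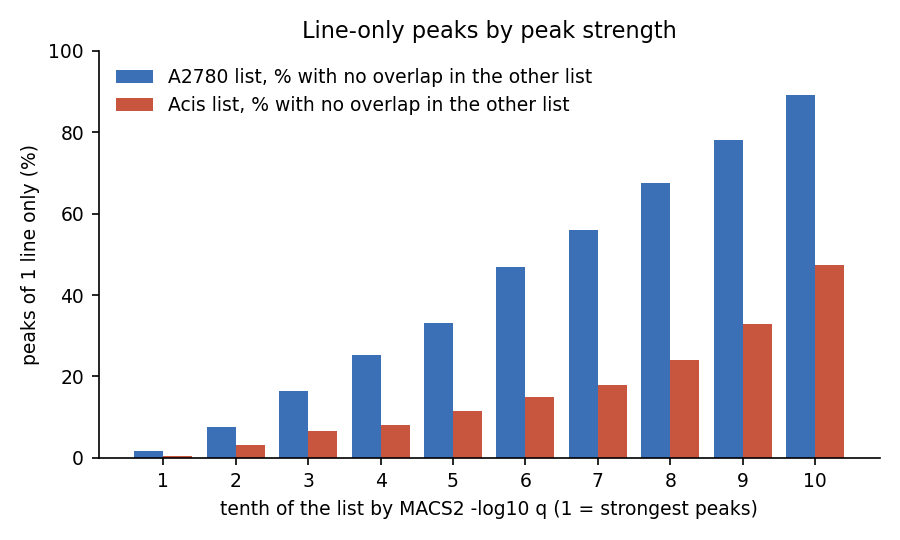
Share of peaks with no overlap in the other control list (y axis, %) for deciles of each list ordered by MACS2 -log10 q (x axis, 1 is the strongest), with A2780 in blue and Acis in red. The share of line-only peaks was 1.72% in the strongest and 89.1% in the weakest A2780 decile, and 0.367% and 47.3% in Acis.

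Line-only peaks lay mostly away from gene starts. A peak was called a start peak when any part of it lay within 1 kb of any annotated transcript start of GENCODE 44, and distal otherwise. In A2780, 24.3% of start peaks and 56.6% of distal peaks were line-only, and in Acis 5.8% and 28.5%. Distal peaks were also weaker than start peaks. Their median -log10 q was 47.7 against 127 in A2780 and 64.4 against 169.8 in Acis. The part of peak strength in these shares was not tested. Start peaks made up 25.8% of A2780-only and 18% of Acis-only peaks, against 58.6% and 58.8% of shared peaks. Introns held 39.2% of A2780-only and 42.0% of Acis-only peaks, and 31.4% and 36.9% were intergenic. The median GC content around the summit was 50.5% in A2780-only and 47.0% in Acis-only peaks, against 61.0% in shared peaks of either list.

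RNA was measured by total RNA-seq, with 4130644 to 5072216 counts on genes per library over the 12 libraries fitted. Of 15760 genes tested, 1101 (6.99%) were higher and 1917 (12.2%) lower in Acis than in A2780, called at an adjusted p under 0.05 by edgeR's quasi-likelihood test and a log2 fold change of at least 1 in size. At the adjusted p alone, 28.2% were higher and 30.6% lower. Acis libraries 2 and 3, like all pairs of A2780 libraries, differed by less than counting noise (ratio 0.95, against 1.26 and 1.46 for the other Acis pairs), and counting them as 1 sample gave 1144 genes higher and 2056 lower. Among markers of the labelled tissue, VIM, a filament protein of mesenchymal cells, had 2006 ± 86.2 normalized counts in A2780 and 1979 ± 17.4 in Acis (SD, n = 3), while CDH2, the other mesenchymal marker tested, fell from 631 ± 10.2 to 68.3 ± 8.01. The Müllerian markers PAX8, WT1, MUC16 and ESR1 had no row in the count table, nor did the epithelial markers CDH1, KRT7 and KRT19, and EPCAM had 28 counts over 12 libraries. Of the 2 epithelial markers tested, KRT18 rose from 25.5 ± 6.89 to 143 ± 9.67 and KRT8 fell from 15.6 ± 4.29 to 4.05 ± 2.47. PTPRC, CD3E, LYZ, PECAM1, VWF and CDH5, markers of immune and endothelial cells, had no row either, while the matrix genes DCN and LUM were lower in Acis.

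Genes with a start peak in 1 line mostly differed in RNA toward that line or did not differ. An A2780-only start peak was found for 2971 annotated genes, of which 1792 were in the count table and 1269 were tested. Of these 1269, 474 (37.4%) were lower in Acis, 97 (7.64%) were higher and 698 were not called, with a median log2 fold change of -0.29. An Acis-only start peak was found for 485 annotated genes, of which 310 were in the table and 229 were tested. Of these 229, 116 (50.7%) were higher in Acis, 10 (4.37%) were lower and 103 were not called, with a median of 1.05. The median over all tested genes was -0.01.

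Genes with a start peak in both lists made up the largest class. Among 10944 such genes, 504 (4.61%) were higher and 856 (7.82%) lower. Among 3243 tested genes with a start peak in neither list, 11.7% were higher and 17.6% lower. A gene that passed the filter only through the line where it is expressed had to differ, so these shares describe the tested genes and are not shares of all members. Without the filter on low counts, 35.7% of the 1792 genes with an A2780-only start peak were lower and 44.8% of the 310 genes with an Acis-only start peak were higher. At the adjusted p alone the shares were 50.2% and 69.0%. The classes were not tested against each other, because genes are not replicates and neighbouring genes share start peaks: 1391 A2780 peaks stood behind the 1269 genes and 235 Acis peaks behind the 229.

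**Figure D2:**
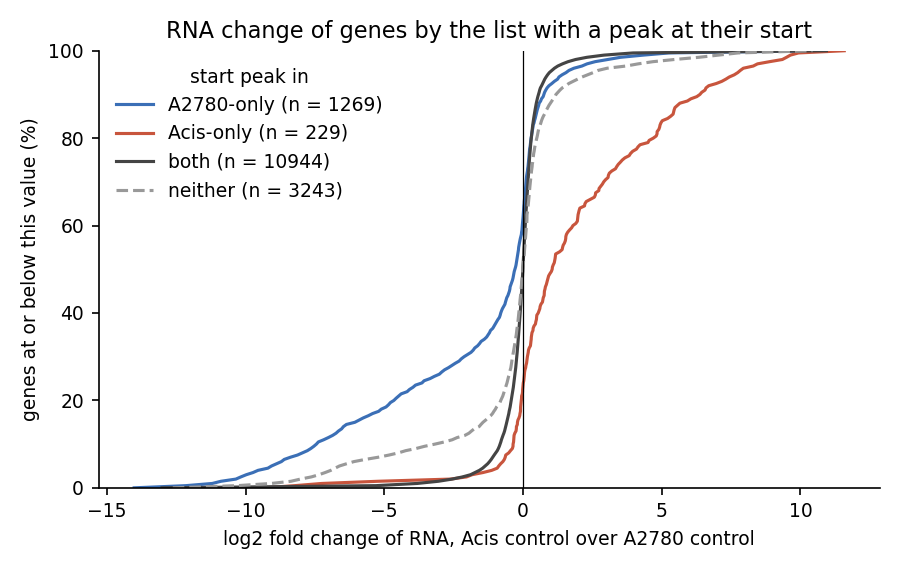
Cumulative distribution of the fitted log2 fold change of RNA (x axis, Acis control over A2780 control) for tested genes with a start peak in the A2780 list only (blue), the Acis list only (red), both (black) or neither (grey, dashed), with the share of genes at or below each value on the y axis (%). The medians were -0.29, 1.05, -0.01 and -0.01, and fitted values of genes without counts in 1 line depend on edgeR's prior count.

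Start peaks that recurred after cisplatin in the same line and were absent from both lists of the other line went with larger RNA differences. For 522 genes whose A2780-only start peak recurred in this way, 288 (55.2%) were lower in Acis and the median log2 fold change was -1.65. For the other 747 genes, 24.9% were lower and the median was -0.04. For 104 genes whose Acis-only start peak recurred, 77 (74.0%) were higher with a median of 2.91, against 31.2% and 0.36 for the other 125. Long noncoding RNAs followed the same order, with 84 of 171 (49.1%) lower beside an A2780-only start peak and 24 of 32 (75%) higher beside an Acis-only one, where 22.3% and 7.72% of the 1878 tested long noncoding RNAs were lower and higher. The ranking of peaks mattered on the Acis side. Among the 20000 strongest peaks of each list, 652 tested genes had a start peak in Acis only and 28.7% of them were higher, whereas 698 had one in A2780 only and 39.3% were lower. With all peaks 229 had one in Acis only, so that the 652 include genes whose A2780 start peak ranked below 20000.

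Several developmental regulators were among the genes with an A2780-only start peak and the largest falls in RNA. Of the 474 genes called lower with an A2780-only start peak, 212 had separate groups and averaged 100 or more normalized counts in A2780. Over all tested genes 12.2% were lower and 6.99% higher, and the share that also met these conditions was not computed. The 8 of the 212 with the largest differences all had no counts in the 3 Acis libraries. DLX6-AS1, a long noncoding RNA antisense to the homeobox gene DLX6, had 2080.4, 2055 and 2067 normalized counts in A2780 and 0 in each Acis library, at least 1901-fold lower (edgeR adjusted p = 4.16e-29). DLX6 itself, a homeodomain factor of limb and craniofacial development, had 478, 524 and 504 in A2780 and 0 in Acis, at least 461-fold lower (edgeR adjusted p = 4.65e-23). Counting used the strand, so that the pair can be told apart. Their peak (chr7:97003870-97005767, fold enrichment 8.22) recurred in treated A2780 cells and was in neither Acis list.

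PAX2, a paired-box factor needed for the kidney and the Müllerian duct, had 1067, 1045 and 1084 normalized counts in A2780 and 0 in each Acis library, at least 979-fold lower (edgeR adjusted p = 6.04e-25). EYA4, a transcriptional coactivator with phosphatase activity, had 800.1, 779 and 773 in A2780 and 0 in Acis, at least 721-fold lower (edgeR adjusted p = 1.43e-25). The 2 groups did not overlap for either gene, by the rule that chose them. The PAX2 peak (chr10:100745098-100745672, fold enrichment 8.63) lay at an annotated start inside the gene, and the EYA4 peak (chr6:133240467-133241028, fold enrichment 12.3) at its 5′ end. Both peaks recurred in treated A2780 cells only. PAX2 had 7 A2780-only peaks in its body or within 50 kb of its starts, and EYA4 had 1.

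HDAC9, a class IIa histone deacetylase, had 726, 738 and 800.2 normalized counts in A2780 and 0 in Acis, at least 694-fold lower, and 35 A2780-only peaks lay in or near it with no Acis-only peak. ZFHX4, a zinc-finger homeobox factor on chromosome 8, had 1156, 1077 and 1189.6 in A2780 and 0 in Acis, at least 1049-fold lower, with 11 A2780-only peaks and 1 Acis-only peak. NAALAD2, a peptidase of the glutamate carboxypeptidase family, and MAB21L2, a developmental gene of the eye, had means of 613 ± 14.3 and 606 ± 30.5 in A2780 (SD, n = 3) and 0 in Acis. The start peak of MAB21L2 was weak (fold enrichment 3.58) and was absent from treated A2780 cells, as was that of ZFHX4, while those of HDAC9 and NAALAD2 recurred. The adjusted p-values of these 4 genes by edgeR were between 3.85e-26 and 6.8e-24.

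Of the 116 genes called higher with an Acis-only start peak, 62 met the same conditions. Among the 8 of these with the largest differences, 3 had no counts in A2780. ENSG00000287853, a long noncoding RNA on chromosome 20, had 377, 386 and 383 normalized counts in Acis and 0 in each A2780 library, at least 388-fold higher (edgeR adjusted p = 1.27e-21). HMX1, a homeobox factor of the eye and ear, had 143, 118 and 114 in Acis and 0 in A2780, at least 127-fold higher (edgeR adjusted p = 4.21e-17). ECEL1, a membrane metallopeptidase of neurons, had 97.6, 109.6 and 96.8 in Acis and 0 in A2780, at least 103-fold higher. All Acis libraries stood above all A2780 libraries for these genes, by the rule that chose them. The HMX1 peak was the strongest of the 3 (chr4:8872073-8872366, fold enrichment 19.6) and recurred in treated Acis cells, whereas that of ECEL1 (fold enrichment 5.81) did not.

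SLC4A4, a sodium bicarbonate cotransporter, had 4.66, 7.69 and 3.2 normalized counts in A2780 and 1228, 1272 and 1258 in Acis, with a log2 fold change of 7.87 ± 0.12 (SE; edgeR adjusted p = 8.11e-28). MLKL, the membrane-disrupting effector of necroptosis, had 1.86, 0 and 0 in A2780 and 143, 165 and 194 in Acis, a log2 fold change of 7.74 ± 0.33 (edgeR adjusted p = 1.45e-17). Both genes stood apart in the 2 lines by the rule that chose them. Their start peaks (fold enrichment 8.57 and 6.96) recurred in treated Acis cells and were in neither A2780 list. CAMK4, a calcium/calmodulin-dependent kinase, RALYL, an RNA-binding protein encoded on chromosome 8, and SHTN1, which acts in neuronal polarity, had means of 308 ± 32.2, 285 ± 12.4 and 264 ± 11 in Acis (SD, n = 3) and 1, 1 and 2 raw counts over the A2780 libraries. The CAMK4 peak was also listed in treated A2780 cells.

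**Figure D3:**
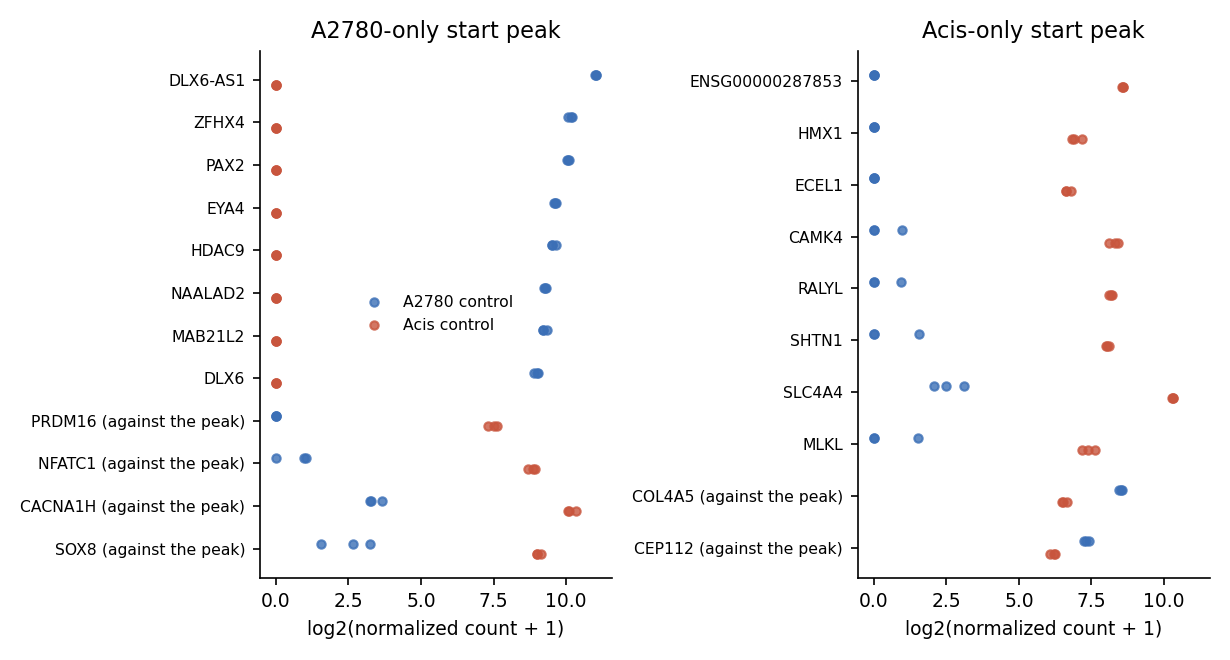
Normalized counts on the scale log2(normalized count + 1) (x axis) in each of the 3 A2780 control (blue) and 3 Acis control (red) libraries for genes with an A2780-only start peak (left) and an Acis-only start peak (right), including those whose RNA went against the peak. The libraries of the 2 lines did not overlap for any gene shown, by the rule that chose them, and 8 genes on the left were at 0 in all Acis libraries.

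Some genes went against their start peak. The 97 genes called higher in Acis with an A2780-only start peak were 7.64% of 1269, near the 6.99% of all tested genes. Of these 97, 37 met the same conditions. The 10 called lower with an Acis-only start peak were 4.37% of 229, against 12.2% of all tested genes, and 2 of them did. PRDM16, a zinc-finger factor of brown fat and blood stem cells, had no counts in A2780 and 197, 159 and 183 normalized counts in Acis, at least 182-fold higher (edgeR adjusted p = 1.08e-17). NFATC1, a calcium-regulated transcription factor, had 0, 0.961 and 1.07 in A2780 and 492, 462 and 412 in Acis (log2 fold change 9.19 ± 0.23, SE). CACNA1H, a T-type calcium channel, and SOX8, an SRY-box factor, had log2 fold changes of 6.91 ± 0.14 and 6.63 ± 0.17.

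The start peaks of these 4 genes all lay inside the gene, at annotated internal starts. This was not particular to them. The strongest start peaks of HDAC9, ZFHX4, SLC4A4 and SHTN1, whose RNA went with the peak, also lay inside the gene. That of PRDM16 (chr1:3424545-3425343, fold enrichment 8.74) was also listed in treated Acis cells and lay near the 3′ end of the gene (chr1:3069168-3438621). The peaks of NFATC1, CACNA1H and SOX8 had fold enrichments of 5.37, 3.98 and 3.95. On the Acis side, COL4A5, a chain of basement membrane collagen, had 370.2, 351 and 368 normalized counts in A2780 and 101, 89.4 and 91.1 in Acis (log2 fold change -1.95 ± 0.09, SE; edgeR adjusted p = 1.49e-16). An A2780 peak lay at chrX:108438010-108438678, beyond the 1 kb limit of COL4A5 but at the start of its divergent neighbour COL4A6, which also fell (log2 fold change -7.12 ± 0.47). CEP112, which encodes a centrosomal protein, fell from 159 ± 9.21 to 71.8 ± 4.4 (SD, n = 3), and its Acis-only peak (fold enrichment 6.03) was listed in treated A2780 and not in treated Acis cells.

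Silence in 1 line and presence in the other went with a line-only start peak in many genes but not in all. Of 60 genes with no counts in Acis that averaged 100 or more normalized counts in A2780, 36 had an A2780-only start peak, 4 had a start peak in both lists and 20 in neither. Of 10 genes with no counts in A2780 and at least 100 in Acis, 3 had an Acis-only start peak, 1 an A2780-only one, 2 a peak in both lists and 4 in neither. For comparison, 1269 of the 15760 tested genes had an A2780-only start peak and 229 an Acis-only one. A peak in both lists was found for 10944 and in neither for 3243.

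RNA differed more often beside clusters of line-only distal peaks than beside 1 of them. A gene was given the distal peaks whose centre lay within 50 kb of one of its starts. Of 5835 tested genes near A2780-only distal peaks alone, 13.9% were lower in Acis with a median log2 fold change of -0.02, against 11.3% and -0.02 for 8314 genes near no line-only distal peak. The share lower was 11.5% with 1 peak, 12.8% with 2, 19.6% with 3 to 4 and 56.4% (97 of 172 genes) with 5 to 45, where the median was -1.77. Of 772 genes near Acis-only distal peaks alone, 17.0% were higher with a median of 0.13, against 6.23% near no line-only distal peak. The share higher was 10.2% with 1 peak (636 genes), 23.4% with 2, 55.3% with 3 to 4 and 66.7% (34 of 51 genes) with 5 to 29, where the median was 1.70. Neighbouring genes share these clusters and are not independent. The limit from the low-count filter, given for the start classes, holds here too. In the bins with the most peaks, 40 of the 172 genes had no counts in Acis and 3 of the 51 none in A2780. Genes with a line-only start peak were not left out of these bins.

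**Figure D4:**
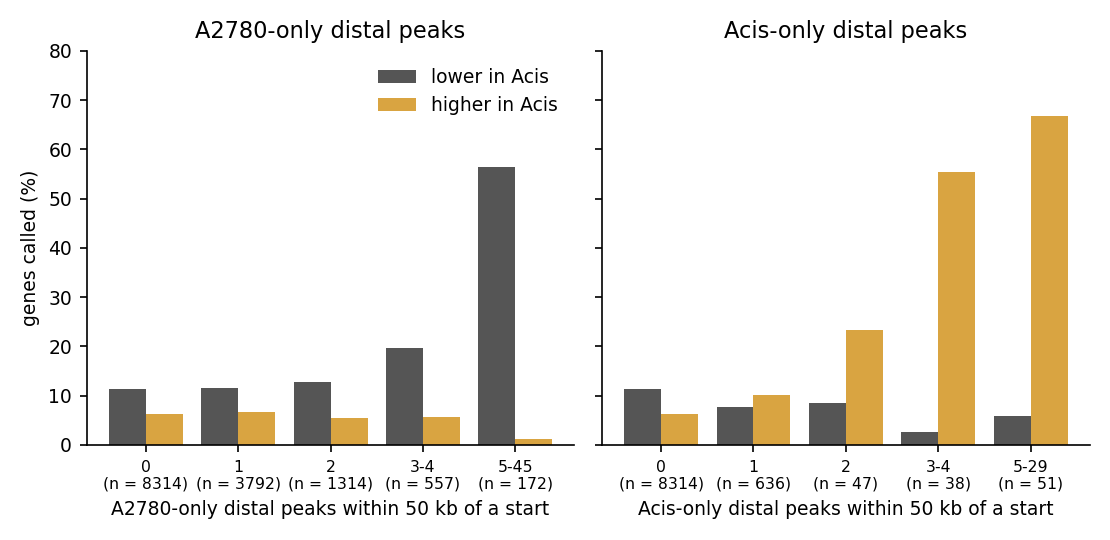
Share of tested genes called lower (grey) or higher (yellow) in Acis (y axis, %) by the number of line-only distal peaks within 50 kb of a start (x axis, genes per bin in brackets), for A2780-only peaks (left) and Acis-only peaks (right). The share lower reached 56.4% at 5 to 45 A2780-only peaks and the share higher 66.7% at 5 to 29 Acis-only peaks.

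Classes were also compared within genes that had a start peak in both lists. Among genes with a start peak in both lists, 11.9% of the 531 near Acis-only distal peaks alone were higher in Acis, against 4.22% of the 5783 near no line-only distal peak. On the other side, 7.94% of the 4107 near A2780-only distal peaks alone were lower, against 8.04%. Of 25 genes with both an Acis-only start peak and Acis-only distal peaks alone, 22 (88.0%) were higher, and of 591 with both kinds in A2780 only, 244 (41.3%) were lower. With no line-only distal peak of either kind, 49.5% of 105 genes with an Acis-only start peak were higher and 34.5% of 557 with an A2780-only start peak were lower.

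The genes with the most line-only peaks were long, and their RNA differed in some and not in others. Peaks were counted over the whole gene body, so that the number can rise with gene length. No number per length was computed. CCDC178, a coiled-coil protein gene on chromosome 18, had 45 A2780-only peaks and no Acis-only peak in its body or within 50 kb of its starts. Its RNA was 260.2, 267 and 248 normalized counts in A2780 and 0, 1.06 and 0 in Acis (log2 fold change -9.05 ± 0.30, SE; edgeR adjusted p = 4.41e-20), so that the groups did not overlap.

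DMD, the gene of dystrophin, had 60 A2780-only and 18 Acis-only peaks, a start peak in both lists, and 3151, 3091 and 3223 normalized counts in A2780 against 1182, 1231 and 1202 in Acis, a log2 fold change of -1.39 ± 0.03. RBMS3, an RNA-binding protein, and the overlapping gene ENSG00000283563 share most of their 47 and 48 A2780-only and 24 Acis-only peaks, and their log2 fold changes of 0.20 ± 0.06 and 0.36 ± 0.13 did not reach the fold threshold.

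Among genes rich in Acis-only peaks, CADM2, a cell adhesion molecule, had 31 of them and 1 A2780-only peak, with 127, 113 and 118 normalized counts in A2780 and 400, 424 and 423 in Acis (log2 fold change 1.79 ± 0.08, SE; edgeR adjusted p = 1.38e-17). RAD51B, which acts in homologous recombination, had 33 Acis-only and 3 A2780-only peaks and went from 55.9 ± 3.16 to 105 ± 9.68 (SD, n = 3), a log2 fold change of 0.90 ± 0.13 that passed the adjusted p (1.24e-06, edgeR) but not the fold threshold. PDE4D, a cAMP phosphodiesterase with 34 Acis-only peaks, and SUGCT, a mitochondrial CoA transferase with 28, had log2 fold changes of 0.39 ± 0.03 and 0.66 ± 0.14. DLG2, a synaptic scaffold with 31 Acis-only and 24 A2780-only peaks, had -0.90 ± 0.07. Only CADM2 of these 5 genes met both thresholds.

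The strongest line-only peaks gave a mixed picture. The strongest A2780-only peak (chr4:104445588-104447053, fold enrichment 12.4) ranked 89 in its list and lay 29.0 kb from the start of CXXC4, an inhibitor of Wnt signalling, whose RNA went from 1544 ± 31.7 to 199 ± 13.2 normalized counts in Acis (SD, n = 3; log2 fold change -2.96 ± 0.05, edgeR adjusted p = 1.84e-26). The next, at the start of the noncoding gene LINC02136 (chr16:71426191-71427154), had ZNF23 as its nearest tested gene, with a log2 fold change of -0.23 ± 0.26. A peak in an intron of PACSIN1, an endocytic adaptor of neurons, stood beside RNA that was higher in Acis (2.59 ± 0.28), against the direction of the peak, and this peak was also listed in treated Acis cells. The peaks nearest to KRBA1 and PHAX stood beside log2 fold changes of -0.04 ± 0.10 and -0.05 ± 0.05.

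In Acis, the strongest line-only peak (chr3:94360693-94361418, fold enrichment 14.4) had no tested gene start closer than 146 kb. The next lay in an intron of SMYD3, a lysine methyltransferase, whose RNA went from 141 ± 10.2 to 471 ± 34.7 (SD, n = 3; log2 fold change 1.74 ± 0.07, edgeR adjusted p = 1.45e-17). One in an intron of CTNNA3, a catenin of cell junctions, stood beside 13.2 ± 9.20 in A2780 and 97.9 ± 6.55 in Acis (log2 fold change 2.92 ± 0.22). The peaks at chr7:15892228-15893325 and in an intron of LINC02055 on chromosome 8 had their nearest tested starts at 204 kb and 1207 kb. All 5 recurred in treated Acis cells and were in neither A2780 list.

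Among shared peaks the fold enrichment was also compared. The log2 ratio of fold enrichment, Acis over A2780, had a median of 0.124 over 20236 pairs, and 90% of pairs lay between -0.39 and 0.55. Across 10880 genes with a start peak in both lists, the Spearman correlation of this ratio with the log2 fold change of RNA was 0.00292, given as a description because genes share libraries and are not independent. Of 55 genes whose ratio lay at least 1 below the median pair, 10 (18.2%) were higher and 4 (7.27%) lower in Acis. Of 21 with a ratio at least 1 above it, 4 were higher and 6 lower. Among the 10804 genes within 1 of the median pair, 4.43% were higher and 7.73% lower. The share lower among the 55 was near this background. Their share higher was above it, against the direction of the ratio. Among the 21, both shares were above the background.

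Chromosome 13 stood apart from the others. Of its 710 A2780 peaks 451 (63.5%) were A2780-only, against 32.2% to 51.9% on the other chromosomes, and the Acis list held 319 peaks there, 0.449 per A2780 peak, where the other chromosomes had 0.65 to 0.78. The 270 tested genes of chromosome 13 had a median log2 fold change of -0.73, with 84 (31.1%) lower and 10 higher, while the medians of the other chromosomes lay between -0.05 and 0.19. The copy number of chromosome 13 in these lines is not given by the files, and its part in these values was not tested. Without chromosome 13, 36.9% of 1224 genes with an A2780-only start peak were lower. Chromosome 8 had the highest median, 0.19, and 26.2% of its Acis peaks were Acis-only, and chromosome 4 had 27.7%.

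**Figure D5:**
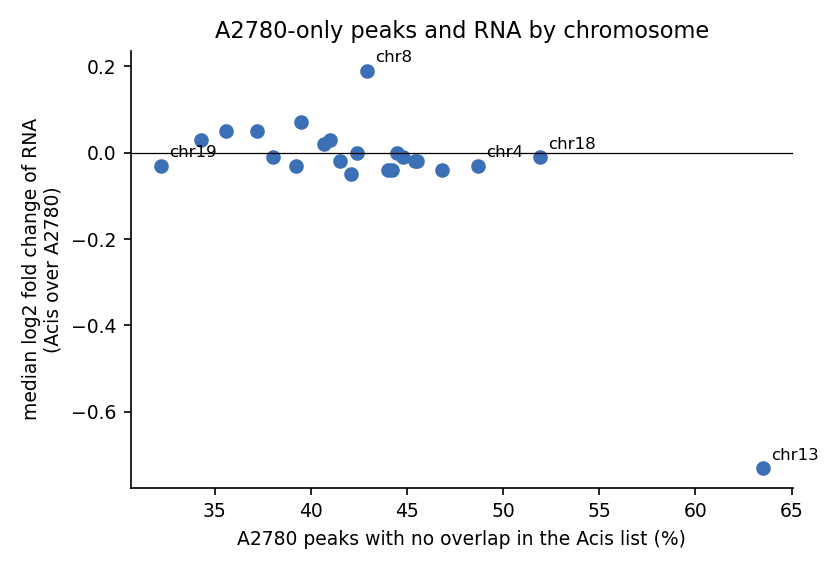
Share of A2780 control peaks with no overlap in the Acis control list (x axis, %) and median log2 fold change of RNA of the tested genes (y axis, Acis control over A2780 control), 1 point per chromosome, 23 in all. Chromosome 13 lies at 63.5% and -0.73, chromosome 8 at 42.9% and 0.19, and the others within -0.05 and 0.07.

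Within windows of 5 Mb holding at least 20 peaks, nearly all A2780 peaks were A2780-only in several. The highest shares of A2780-only peaks were 5 of 5 at 55 to 60 Mb of chromosome 13, where 16 of 16 Acis peaks were Acis-only as well, 23 of 24 at 95 to 100 Mb of chromosome X, and 39 of 41 at 25 to 30 Mb of chromosome 5. At 30 to 35 Mb of chromosome 18, the region of CCDC178, 76 of 81 A2780 peaks were A2780-only and the median log2 fold change of 21 tested genes was -6.21, with 13 lower and 1 higher. At 90 to 95 Mb of chromosome 13, 48 of 52 were A2780-only and 7 of 9 tested genes were lower. The windows named here were picked by their values. Beside these counts, 12.2% of all tested genes were lower and 6.99% higher, and 31.1% of those on chromosome 13 were lower. The lowest shares were 1 of 14 at 75 to 80 Mb of chromosome 3, 1 of 8 at 110 to 115 Mb of chromosome 8 and 4 of 29 at 85 to 90 Mb of chromosome 8, where 37 of 62 Acis peaks were Acis-only and 5 of 16 tested genes were higher.

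The CTCF pattern was less frequent in distal line-only than in distal shared peaks of these lists. Within 200 bp around the summit, the CTCF pattern was found in 17.4% of A2780-only and 14.3% of Acis-only distal peaks, against 32.0% and 31.6% of shared distal peaks and 6.29% and 4.50% of windows 2 kb from the line-only peaks. The NFI motif TTGGCA was found in 14.4% of Acis-only and 9.38% of A2780-only distal peaks, with 10.4% and 10.2% in shared distal peaks of Acis and A2780 and 9.22% and 9.97% in windows 2 kb from the line-only peaks. For the TEAD motif GGAATG the shares were 16.8% and 13.2%, with 13.1% and 13% in shared distal peaks and 11.3% and 10.9% in windows 2 kb away, so that A2780-only peaks were close to shared ones for both motifs. The AP-1 motif TGANTCA was found in 7.61% and 6.75%, with 4.94% in shared distal peaks of either list and 5.93% and 5.69% in windows 2 kb away. These are counts of peaks of 1 list per line, and they carry no replicate error.

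Shares were also taken over the distal peaks that recurred in treated cells of the same line and in neither list of the other. NFI was found in 17.6% of 1843 such Acis-only peaks and 9.18% of 3128 such A2780-only peaks, and TEAD in 18.6% and 14.9%. The CTCF pattern was found in 10.3% of the recurring Acis-only and 21.6% of the recurring A2780-only peaks, and the SP/KLF motif GGGCGG in 3.2% and 11%. In windows 2 kb away, in the same order, the shares were 10.0% and 10.4% for NFI and 10.7% and 11.1% for TEAD. They were 3.96% and 6.97% for CTCF and 1.84% and 4.25% for SP/KLF, so that the lines differed there in the same direction. The GATA motif AGATAA was found in 15.7% and 8.18%, below the 16.6% and 12.7% of windows 2 kb away. A CTCF match can overlap an SP/KLF match.

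Members of 7 gene lists, which were chosen with earlier results of these data known, are described next, from lineage factors to detoxification genes. Of 31 urogenital lineage factors 9 were tested, of which 5 were lower and 2 higher in Acis, with a median log2 fold change of -1.12, where 12.2% of all tested genes were lower and 6.99% higher with a median of -0.01. PAX2 and FOXL2, a forkhead factor of the ovary, had A2780-only start peaks and no counts in Acis, and FOXL2 had 136, 133 and 130.2 normalized counts in A2780 (edgeR adjusted p = 1.26e-16). SOX9, a factor of the testis and cartilage, had 247, 278 and 304 in A2780 and 0 in Acis with a start peak in neither list. SIX2 fell from 201 ± 3.47 to 92.3 ± 2.04 (SD, n = 3), and GATA2 rose from 423 ± 13.1 to 1099 ± 47.3 with a start peak in both.

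Of 21 homeodomain factors of the DLX, MSX, IRX, MEIS and PBX families 17 were tested, with 8 lower and 4 higher, against 12.2% and 6.99% of all tested genes. Of the 8 lower members 3 had an A2780-only start peak, and of the 4 higher members 1 had an Acis-only start peak. The members named here were all lower. DLX5 and MSX1, like DLX6, had A2780-only start peaks, and DLX5 had 485, 499.8 and 512 normalized counts in A2780 and 0 in Acis (edgeR adjusted p = 4.26e-22). MSX1 had 644, 639 and 633 in A2780 and 0, 1.06 and 1.14 in Acis. PBX3 fell from 1001 ± 12 to 429 ± 21.8 with 24 A2780-only peaks nearby, and MEIS3 fell from 327 ± 14.5 to 71.6 ± 10.9.

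Of 28 regulators of epithelial-mesenchymal state and adhesion genes 13 were tested, with 7 lower and 3 higher, against 12.2% and 6.99% of all tested genes. TWIST1 had 595, 588 and 587 normalized counts in A2780 and 0, 4.26 and 1.14 in Acis with an A2780-only start peak (log2 fold change -8.25 ± 0.18, SE; edgeR adjusted p = 2.02e-24). PRRX1 also had an A2780-only start peak and 236, 235 and 261 in A2780 against 0 in Acis. TWIST2, a paralogue of TWIST1, was at 0 in A2780 and 85.9, 111 and 105 in Acis with a start peak in neither list. SNAI2 fell from 472 ± 6.34 to 115 ± 5.48 with a start peak in both lists, CDH2, or N-cadherin, fell from 631 ± 10.2 to 68.3 ± 8.01, and the keratin KRT18 rose by a log2 fold change of 2.49 ± 0.14.

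Of 15 fibrillar and basement membrane collagens 10 were tested, with 5 lower and 2 higher, against 12.2% and 6.99% of all tested genes, and both that rose had an Acis-only start peak. COL11A1 had 305, 342 and 329 normalized counts in A2780 and 3919, 3942 and 3786 in Acis (log2 fold change 3.58 ± 0.04, SE; edgeR adjusted p = 2.2e-30), with 8 Acis-only and no A2780-only peaks nearby. COL3A1 rose from 1801 ± 36.4 to 3942 ± 70.2 with 6 Acis-only peaks. COL1A2 was at 787 ± 26.8 in A2780 and 0 in Acis, with a start peak in neither list, and COL1A1 fell from 843 ± 57.2 to 16.4 ± 7.12 with a start peak in both.

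Of 32 tested chromatin remodelling and DNA methylation genes, HDAC9 was lower and no other was called. Over all tested genes 12.2% were lower and 6.99% higher, so that the share called in this list was below the background. TET1, DNMT3B and DNMT3A had log2 fold changes of -0.97 ± 0.06, -0.95 ± 0.07 and -0.90 ± 0.07, close to the fold threshold. Of 25 tested genes of platinum transport and detoxification, 2 were lower and none higher, where 12.2% of all tested genes were lower and 6.99% higher, so that the share lower was near the background. These were GSTM2, a glutathione transferase (log2 fold change -1.84 ± 0.27), and ABCC2, an efflux pump with 10.3, 18.3 and 11.7 normalized counts in A2780 and 3.18, 8.52 and 7.97 in Acis (-1.03 ± 0.42; edgeR adjusted p = 0.0363), both with a start peak in both lists. The ABCC2 call was lost with DESeq2 (adjusted p = 0.146) and without A2780 replicate 2 or Acis replicate 1, where edgeR gave log2 fold changes of -0.75 and -0.71. ABCC1, another efflux pump, had an A2780-only start peak and a log2 fold change of 0.30. Of 18 tested AP-1 and TEAD factors 3 were higher and 2 lower, against 6.99% and 12.2% of all tested genes. JUN rose from 10.6 ± 2.21 to 60.7 ± 10.6 and ATF3 fell from 126 ± 6.21 to 16.6 ± 3.55, both with a start peak in both lists, while MAFK and BATF3 rose beside an A2780-only start peak and TEAD3 fell with a start peak in neither.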

How the data were processed

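ATAC-seq peaks of untreated and cisplatin-treated A2780 and Acis cells and RNA-seq counts of both lines were used. The 2 XR-seq samples were not used here. Before ATAC-seq, 100000 cells per reaction were washed and treated with 200 units/mL DNase for 30 min. Reads were trimmed with cutadapt 1.15 and aligned to hg38 with Bowtie2 2.4.1, allowing several alignments per read, duplicate, mitochondrial and chromosome Y reads were removed, and MACS2 was run by the authors on replicates and on pooled reads. Each deposited list holds peaks found in all replicates (3 in untreated, 2 in treated cells) with the fold enrichment (a ratio over the local background) and the MACS2 -log10 q, so it has no replicate error, and its depth is unknown. The authors deposited raw counts per gene from stranded libraries, made with STAR 2.7.3, removal of PCR duplicates and HTSeq 0.11.1. The table holds 23622 genes with at least 10 counts over 12 libraries.

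Overlaps were computed with bedtools 2.31.1, and starts came from GENCODE 44, which holds 23475 of the identifiers. Counts were fitted with edgeR 4.0.16 in R 4.3.3 (TMM, default low-count filter, 4 groups, 12 libraries, 8 residual degrees of freedom), tested by quasi-likelihood with Benjamini-Hochberg adjustment over 15760 genes, and checked with DESeq2 1.42.0. Normalized counts were divided by each TMM-scaled library size and multiplied by the average one. Folds against a group with no counts used a floor of 3 counts over the group and cover counting error only. The scripts were tested on simulated data. No sequence came from chromosome 8, and UTR bases were limited.

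Cells for RNA were seeded in triplicate and nothing says that replicates came from separate passages, so p-values measure only the spread between these samples, which may be technical. All 3 pairs of A2780 libraries, and Acis libraries 2 and 3, differed by less than counting noise (ratios of 0.73 to 0.821 and 0.95), while the other Acis pairs had 1.26 and 1.46. They were kept as replicates, and an alternative chosen after seeing the data merged Acis libraries 2 and 3. Replicate numbers did not pair the samples.

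Members and lists were chosen with earlier results of these data known. Named genes were the 8 with the largest log2 fold change per line among called genes whose line-only start peak had the same direction, whose groups did not overlap and whose higher group had a mean of at least 100 normalized counts, the 4 largest against the peak, the 5 per line with the most line-only peaks, those beside the 5 strongest line-only peaks, and at most 6 members of each list by adjusted p. Other members of these lists that are named were chosen after their values were seen. Some genes and 1 sequence that these rules pick are not reported here.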

Additional observations from a re-analysis of the deposited data

How the results depend on the processing

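No named gene changed direction under the alternatives run. With a start peak in both lists, the share lower near A2780-only distal peaks went from above to just below that near no line-only distal peak (7.94% against 8.04%), and with the 20000 strongest peaks of each list the share called was larger for A2780-only (39.3%) than for Acis-only start peaks (28.7%), the reverse of the order with all peaks. Where a value moved, the cause was not tested, beyond the fewer or more genes and peaks that an alternative admits. With the strongest 20000 peaks of each list, A2780-only peaks numbered 4576, and with the strongest 10000 the numbers were 1792 and 1772 for Acis. The 20000 strongest also left 698 tested genes with an A2780-only and 652 with an Acis-only start peak, of which 28.7% of the latter were higher. These 652, against 229 with all peaks, include genes whose A2780 start peak ranked below 20000. Start peaks absent from both lists of the other line left 652 and 119 tested genes, of which 54.3% were lower and 65.5% higher. With the 5′ end of a gene as its only start, 32.3% of genes with an A2780-only start peak were lower. DESeq2 gave 31.8% and 42.8% for the start classes and 12.1% for A2780-only distal peaks. Near A2780-only and Acis-only distal peaks alone, the shares lower and higher were 16.0% and 19.9% within 20 kb, 7.94% and 11.9% with a start peak in both lists, and, in an alternative chosen after seeing the data, 16.7% and 21.7% with peaks that recurred after cisplatin. The adjusted p alone gave 4447 genes higher and 4829 lower, and 50.2%, 69.0%, 33.0% and 42.9% for the start and distal classes in the order A2780-only, Acis-only. Without the low-count filter 2942 genes were lower, and with only the 6 control libraries 12.8% were lower near A2780-only distal peaks.

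Leaving out each control replicate gave 1109 to 1150 genes higher and 1962 to 2069 lower, 36.6% to 37.5% and 48.5% to 49.8% for the start classes, and 13.7% to 14.3% and 16.7% to 17.2% for the distal classes. Merging Acis libraries 2 and 3, and leaving out chromosome 13, both chosen after seeing the data, gave 37.5% and 36.9% for A2780-only and 50% and 50.4% for Acis-only start peaks, and 14.3% and 13.4%, and 16.7% and 16.8%, for the distal classes. Same-numbered libraries of the 2 lines had correlated deviations of 0.0535 to 0.0912 over 10898 genes, too low to pair them, and the replicate block gave 1101 genes higher, 1917 lower, and shares of 37.4%, 50.7%, 13.9% and 17.0%. Over 12 other fits, 883 of 886 values of 74 named genes kept their call. The 3 others were ABCC2, with adjusted p of 0.146 by DESeq2 and log2 fold changes of -0.75 and -0.71 by edgeR without A2780 replicate 2 and Acis replicate 1.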
